A study of Mus musculus with 2 samples.

Results

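The genes described here are 10 transcription factor genes of the AP-1 and immediate early response, namely Fos, Fosb, Fosl1, Fosl2, Jun, Junb, Jund, Atf3, Egr1 and Myc. They were taken by symbol from the 19465 genes of the deposited count matrices, and all 10 were found once each. Visium CytAssist, an assay in which gene probes hybridized to a formalin-fixed section are captured on a grid of barcoded spots and counted by unique molecular identifiers (UMIs), was run on 2 mouse heart sections 5 μm thick. The control section came from 1 α-MHC-MerCreMer+/− mouse and the transgenic section from 1 α-MHC-MerCreMer+/− hTOP2BLSL/− mouse, and the comparison asks what differs in a heart with induced human TOP2B. Both animals carried the tamoxifen-activated MerCreMer recombinase, which the α-MHC promoter drives in cardiomyocytes, and both received a single intraperitoneal dose of 80 mg/kg tamoxifen. In the transgenic mouse, recombination removes a stop cassette in front of human TOP2B, an enzyme that cuts and rejoins both strands of DNA. Neither section lacked Cre or tamoxifen, and the age of the animals and the time from tamoxifen to harvest are not given in the labels.

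Over tissue, 14376300 UMIs were counted in 1256 control spots (median 11335.5 per spot) and 12953389 UMIs in 924 transgenic spots (median 14531). Each spot covers cells of more than one kind, so that fewer cells of a type and less RNA per cell cannot be told apart. The sections shared 725 spot barcodes, which mark positions of the array and not cells. With 1 section per genotype no test was run, and no difference below has a replicate check. The ranges in parentheses are 95% intervals that cover counting error alone. Levels are UMIs of a gene per 1000000 UMIs of its section (CPM). Mouse Top2b was at 106 CPM in the control heart and at 102 CPM in the transgenic heart, with a log2 ratio of -0.07 (-0.17 to 0.04), and whether the mouse probes read the human transgene is not stated. Cardiomyocyte markers were present in both sections, none of the 9 measured at 0, and summed to 7.98% of control UMIs (7.73 to 8.15% over 4 quadrants of the section) and 3.93% of transgenic UMIs (3.26 to 4.60%). Of these 9 genes, 5 were at least 2-fold lower in the transgenic section and 0 at least 2-fold higher. Of all genes with at least 20 UMIs over both sections, 5.61% were at least 2-fold lower and 13.7% at least 2-fold higher. The largest part of the list was Myl2 in the control (26.4%) and Tnnt2 in the transgenic section (37.5%). Spots ranked by this list below are thus ranked by the RNA of these genes, not by a count of cardiomyocytes. Erythroid markers summed to 0.222% (0.175 to 0.264% over quadrants) and 2.08% (0.735 to 4.68%), with 8 of 8 genes past 2-fold toward the transgenic side, against 13.7% of all genes. A single gene, Hba-a2, made up 74.4% of the erythroid UMIs in the control and 74.6% in the transgenic section. Fibroblast markers went from 0.169% (0.153 to 0.183% over quadrants) to 0.478% (0.365 to 0.588%), with 7 of 10 at least 2-fold higher, and macrophage markers from 0.0321% (0.0303 to 0.0344%) to 0.0631% (0.0546 to 0.0695%), with 4 of 10, both against the same 13.7%, while endothelial markers made up 0.193% and 0.195%.

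AP-1 is a pair of basic leucine zipper proteins, one of them usually a JUN protein (Jun, Junb, Jund) and the other a JUN, FOS (Fos, Fosb, Fosl1, Fosl2) or ATF (Atf3) protein, that binds DNA as a dimer. FOS proteins do not pair with each other and need a JUN partner, whereas JUN proteins can pair among themselves. Many of these genes are immediate early genes, transcribed within minutes of a growth, stretch or stress signal through factors that already wait in the cell, such as CREB, ATF2, SRF and the ternary complex factors that MAP kinases phosphorylate. Egr1 is a zinc finger factor of the same early wave, and Myc forms a dimer with MAX on E boxes and drives growth and ribosome production. In the heart the wave is known for pressure overload, ischemia and hypertrophic agonists, and several of its RNAs are short-lived.

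Promoter sequence was available from RefSeq (GRCm38.p6) for 7 of the 10 genes, not for Fosl1, Egr1 and Myc. The 130 bases before the annotated start are printed for 5 of them, because these hold letters of a binding site for a factor of this same network. Capitals mark the motif matches and, in Fos, also the TATA box.
Fos, chr12:85473760-85473889, plus strand: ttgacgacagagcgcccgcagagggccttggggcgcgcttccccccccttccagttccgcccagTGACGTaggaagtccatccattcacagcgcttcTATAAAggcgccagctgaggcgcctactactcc
Jun, chr4:95052223-95052352, minus strand: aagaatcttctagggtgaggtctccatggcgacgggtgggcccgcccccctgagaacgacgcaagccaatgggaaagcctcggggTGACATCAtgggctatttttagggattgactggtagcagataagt
Atf3, chr1:191183334-191183463, minus strand: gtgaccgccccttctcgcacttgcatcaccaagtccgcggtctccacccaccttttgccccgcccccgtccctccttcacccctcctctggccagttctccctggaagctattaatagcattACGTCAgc
Fosb, chr7:19310046-19310175, minus strand: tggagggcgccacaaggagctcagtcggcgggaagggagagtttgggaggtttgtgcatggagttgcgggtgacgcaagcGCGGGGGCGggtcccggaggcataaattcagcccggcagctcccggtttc
Fosl2, chr5:32136342-32136471, plus strand: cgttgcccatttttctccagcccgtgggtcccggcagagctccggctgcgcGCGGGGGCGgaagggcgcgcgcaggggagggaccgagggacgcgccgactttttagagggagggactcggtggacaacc
Fos held TGACGT, the core that CREB and ATF proteins recognize, with its first base 66 bases before the start, and TATAAA 33 bases before it. Jun held TGACATCA, a match to the searched letters TGACNTCA, at 45 bases, which is the type of site that JUN and ATF2 dimers bind. Atf3 held TGACGT on the opposite strand, printed as ACGTCA, at 8 bases. Fosb and Fosl2 each held GCGGGGGCG, a match to the EGR1 site GCGNGGGCG, at 50 and at 79 bases. Over the 250 bases before the start of all 32851 promoters in the table, searched on both strands, TGACGT was found in 6.47%, TGACNTCA in 7.49%, GCGNGGGCG in 4.70% and TATAAA in 12.4%, and a site that matches both of the first motifs was counted under each. The AP-1 site TGANTCA (6.75% of promoters), the CArG box of SRF (1.47%) and the E box CACGTG (6.02%) were in none of the 7 windows of 250 bases. Sites further from the start were not searched, so their absence there is not shown. These matches are descriptions of the letters, and factor binding was not measured.

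All 10 genes had a higher level in the transgenic section by CPM, against 63.2% of the 15236 genes with at least 20 UMIs over both sections, a minimum that all 10 passed, and 0 of 10 were lower, against 36.8%. Of the 10, 6 were at least 2-fold higher (Fos, Fosb, Jund, Atf3, Egr1 and Myc), against 13.7% of all genes, and 0 of 10 were at least 2-fold lower, against 5.61%. Their median log2 ratio of transgenic over control CPM was 1.20, which was 1.00 above the median of all genes, 0.20. For 9 of the 10 the interval of the log2 ratio lay above 0, the exception being Fosl1, against 39.4% of all genes. All 4 transgenic quadrants lay above all 4 control quadrants for 8 of the 10, against 30.4% of all genes, and overlapped for Fosb and Fosl1. The direction of all 10 was the same with TMM factors, with DESeq2 size factors and with totals that leave out the 50 most abundant genes, whereas Jund was then under 2-fold, at log2 ratios of 0.91, 0.92 and 0.98. The median of all genes was then 0.05, 0.05 and 0.12, and the shares of all genes that were higher were not computed.

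**Figure D1:**
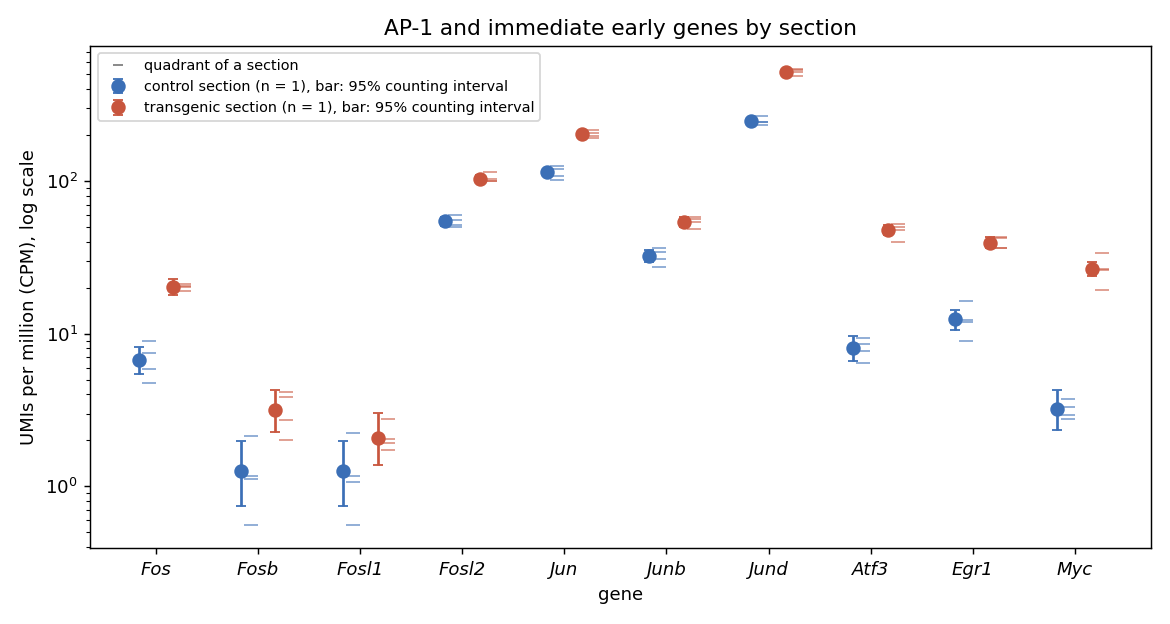
Level of each gene in CPM (UMIs per 1000000, log scale) in the control section (blue) and the transgenic section (red). Points are section values (n = 1 each), bars are 95% counting intervals and short lines are the 4 quadrants of a section, which are separate for every gene but Fosb and Fosl1.

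Among the FOS genes, Fos itself, the prototype of the immediate early genes, had 97 control and 262 transgenic UMIs. Its level was 6.75 CPM (5.47 to 8.23) against 20.2 CPM (17.9 to 22.8), a log2 ratio of 1.58 (1.24 to 1.94). The quadrants ran from 4.72 to 8.88 CPM in the control and from 19.0 to 21.1 CPM in the transgenic section, so that the transgenic quadrants differed little among themselves. Fosl2, which encodes FRA2, a FOS protein without the strong activation domain of FOS, had 781 and 1341 UMIs, or 54.3 CPM (50.6 to 58.3) and 104 CPM (98.1 to 109). Its log2 ratio was 0.93 (0.80 to 1.06), with quadrants from 50.0 to 60.1 CPM in the control and from 99.2 to 114 CPM in the transgenic section. Fosl2 was thus the FOS gene with the most UMIs behind its ratio and the narrowest interval.

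Fosb and Fosl1 were close to the limit of what the sections could show. Fosb had 18 and 41 UMIs, or 1.25 CPM (0.742 to 1.98) and 3.17 CPM (2.27 to 4.29), with a log2 ratio of 1.34 (0.51 to 2.22). Fosl1, which encodes FRA1, had 18 and 27 UMIs, or 1.25 CPM (0.742 to 1.98) and 2.08 CPM (1.37 to 3.03), and the interval of its log2 ratio of 0.74 spanned 0 (-0.18 to 1.68). For scale, 14 genes of other organs, such as those for rhodopsin, insulin and protamines, had between 4 and 22 UMIs in the control section and between 2 and 29 in the transgenic section. The counts of Fosl1 in both sections and of Fosb in the control section therefore lay within the range of genes that heart tissue should lack, and the Fosb count in the transgenic section lay above it. Slc17a7, a neuronal gene also on that list, was left out of the range because it had 231 and 1219 UMIs.

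The JUN genes had log2 ratios from 0.75 to 1.07, and Jund had the narrowest interval of all 10 genes. Jun, the founding AP-1 subunit, had 1638 control and 2612 transgenic UMIs, or 114 CPM (108 to 120) and 202 CPM (194 to 210), a log2 ratio of 0.82 (0.73 to 0.91). Junb, which often opposes Jun at growth genes, had 462 and 699 UMIs, or 32.1 CPM (29.3 to 35.2) and 54.0 CPM (50.0 to 58.1), a log2 ratio of 0.75 (0.58 to 0.92). Jund, which is expressed in resting cells and is the least inducible of the JUN genes, had 3547 and 6705 UMIs, or 247 CPM (239 to 255) and 518 CPM (505 to 530), a log2 ratio of 1.07 (1.01 to 1.13). The interval of Jund lay above those of Jun and Junb, whose own intervals overlapped. Quadrants ran from 102 to 125 CPM and from 191 to 217 CPM for Jun, from 27.5 to 36.3 CPM and from 48.3 to 58.4 CPM for Junb, and from 234 to 264 CPM and from 485 to 542 CPM for Jund.

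Within the families the make-up of the counted RNA also differed between the sections, a comparison that no scaling between sections affects. Since the probes of different genes differ, a share is compared between sections only for the same gene. FOS family UMIs summed to 914 and 1671, a log2 ratio of 1.02 (0.90 to 1.14) in CPM. The Fos share of that sum was 10.6% (8.69 to 12.8%) in the control and 15.7% (14.0 to 17.5%) in the transgenic section, and the Fosl2 share was 85.4% (83.0 to 87.7%) and 80.3% (78.3 to 82.1%). The Fos share was thus higher and the Fosl2 share lower in the transgenic section, in both cases with intervals that did not overlap. JUN family UMIs summed to 5647 and 10016, a log2 ratio of 0.98 (0.93 to 1.02). The Jund share was 62.8% (61.5 to 64.1%) and 66.9% (66.0 to 67.9%), the Jun share 29.0% (27.8 to 30.2%) and 26.1% (25.2 to 27.0%), and the Junb share 8.18% (7.48 to 8.93%) and 6.98% (6.49 to 7.50%). The shift was toward Jund, with intervals of Jund and of Jun that did not overlap between sections and intervals of Junb that did.

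The 3 members outside the FOS and JUN families had the 3 highest ratios of the 10. Atf3, a stress-induced ATF protein that represses as a homodimer and can activate with JUN partners, had 115 control and 619 transgenic UMIs, or 7.999 CPM (6.604 to 9.60) and 47.8 CPM (44.1 to 51.7). Its log2 ratio was 2.58 (2.29 to 2.88), or 5.97-fold, and 98.2% of all genes had a ratio at or below it. Egr1 had 178 and 511 UMIs, or 12.4 CPM (10.6 to 14.3) and 39.4 CPM (36.1 to 43.0), a log2 ratio of 1.67 (1.42 to 1.93). Quadrants ran from 6.39 to 9.37 CPM and from 39.5 to 52.2 CPM for Atf3 and from 8.89 to 16.4 CPM and from 36.2 to 42.8 CPM for Egr1, far apart between sections in both cases. Myc had 46 and 342 UMIs, or 3.20 CPM (2.34 to 4.27) and 26.4 CPM (23.7 to 29.4), a log2 ratio of 3.04 (2.60 to 3.52), or 8.25-fold. It was the highest ratio of the 10 genes and held place 165 from the top among the 15236. Myc also had the widest relative spread inside the transgenic section among these 3 genes, with quadrants from 19.2 to 33.9 CPM, against 2.78 to 3.73 CPM in the control.

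**Figure D2:**
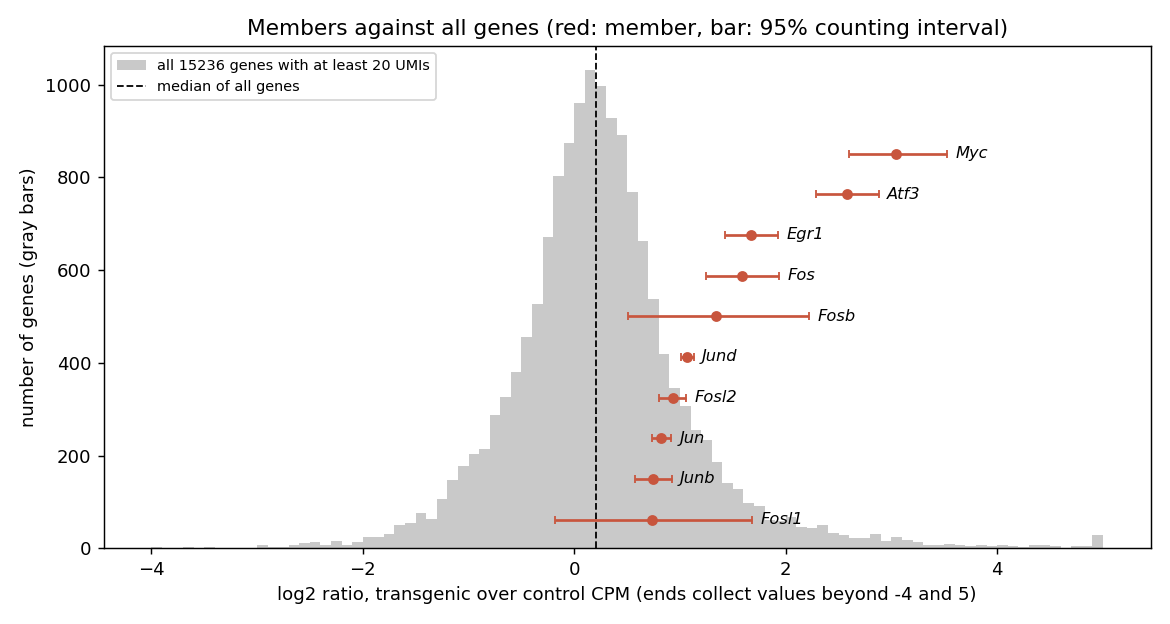
Log2 ratio of transgenic over control CPM for the 10 genes (red, bar: 95% counting interval) over the histogram of all 15236 genes with at least 20 UMIs (gray, number of genes). All 10 points lie to the right of the median of all genes (dashed, 0.20), from Fosl1 at 0.74 to Myc at 3.04.

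In order of log2 ratio the genes ran Myc, Atf3, Egr1, Fos, Fosb, Jund, Fosl2, Jun, Junb and Fosl1. Neighbors in this order had intervals that overlapped, except Atf3 and Egr1. The lower bound of Atf3, 2.29, lay above the upper bound of Egr1, 1.93, whereas Myc and Atf3 shared the stretch from 2.60 to 2.88.

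Because marker genes of several cell types moved with the genotype, the ratios were also taken in parts of the sections. Spots were ranked within each section, so the parts were not matched between sections. The lowest transgenic quadrant had 0.365% fibroblast UMIs and the highest control quadrant 0.183%. These parts therefore cannot separate a change in cell make-up from one within cells. Among spots above the middle of their section by cardiomyocyte marker share (50% of spots), 10 of 10 genes were higher in the transgenic section. Their median log2 ratio was 1.17, against 0.19 for all genes in these spots. In the 50% poorest in erythroid markers the median was 1.30 (all genes 0.25), and in the 50% poorest in fibroblast markers 1.09 (all genes 0.13). It was 1.22 (all genes 0.17) in those poorest in macrophage markers and 1.24 (all genes 0.20) in those poorest in endothelial markers. Again 10 of 10 members were higher each time, but the share of all genes that were higher was not computed in these parts. Single members moved more than the median of the members. Atf3 had a log2 ratio of 2.98 in the cardiomyocyte-rich spots and 3.17 in the fibroblast-poor spots, both above its interval over whole sections, and Junb had 0.55 and 0.52, both below its interval. Myc had 3.57 and Fos 1.95 in the macrophage-poor spots, just above their intervals. Egr1 had 1.41 in the interior spots alone, just below its interval.

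The share of spots with at least 1 UMI followed the levels. Fos was found in 7.25% of control spots (5.87 to 8.82%) and 25% of transgenic spots (22.2 to 27.9%), Atf3 in 8.60% (7.11 to 10.3%) and 46.1% (42.9 to 49.4%), Egr1 in 13.0% (11.2 to 15.0%) and 39.1% (35.9 to 42.3%), and Myc in 3.58% (2.62 to 4.76%) and 30.0% (27.0 to 33.1%). These low-count genes were thus spread over a larger share of the transgenic spots, most of which held a single UMI of the gene, and the most that 1 transgenic spot held was 3 UMIs of Fos, 6 of Atf3, 5 of Egr1 and 3 of Myc. Fosl2 was found in 44.7% and 69.9% of spots, Jun in 68.4% and 88.3%, Junb in 30.4% and 49.2%, and Jund in 91.2% and 97.2%. Since transgenic spots were deeper, the shares were recomputed for spots thinned to 8134 UMIs each, which left out 140 control and 78 transgenic spots that were shallower. The thinned shares were 5.24% and 15.8% for Fos, 5.97% and 31.6% for Atf3, 9.48% and 26.6% for Egr1, 2.54% and 19.5% for Myc, 34.7% and 55.6% for Fosl2, 58.3% and 79.6% for Jun, 22.7% and 34.3% for Junb, and 85.6% and 98.2% for Jund. The order of the sections was kept for each of these 8 genes. Fosb was found in 1.43% and 4.33% of spots (1.07% and 2.54% thinned) and Fosl1 in 1.43% and 2.92% (1.09% and 1.77% thinned), while the 14 genes of other organs reached 1.75% of control and 3.03% of transgenic spots (0.981% and 1.64% thinned). The Fosb share in the control and the Fosl1 shares in both sections were at or near that level of stray UMIs.

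The spatial pattern was described by the deposited Moran's I, a score near 0 for a gene scattered at random over spots and higher for a gene whose high spots lie together. Its median over all genes was 0.0013 in the control and 0.0143 in the transgenic section, with 90th percentiles of 0.0189 and 0.0969, and it grows with the number of UMIs of a gene, for which it was not corrected. For a gene without a pattern its standard error would be 0.0168 in the control and 0.0201 in the transgenic section. The control scores of Fosl2, Junb, Atf3 and Myc lay below that error. Those of Jund and Egr1 exceeded it by less than its own size. That error holds for the neighbors used here, which need not be those of the deposited score. Recomputed here with these neighbors, the control scores were 0.046 for Jund, 0.035 for Jun and 0.034 for Egr1 and Myc. All of these exceeded the error by more than its own size. Atf3 had 0.021, Fosl2 0.0069 and Junb 0.0043. The scores below are again the deposited ones. Jun had 0.036 and 0.159 and Jund 0.025 and 0.178, above the 90th percentile of all genes in both sections. Egr1, at 0.024, was above it in the control, but in the transgenic section it had 0.054. Fosl2 had 0.0080 and 0.058, Junb 0.0081 and 0.062, Atf3 0.015 and 0.054, and Myc 0.015 and 0.061, all 4 under the 90th percentile of their section. Set among all genes of the section, Fosl2 stood at or above 71.7% of them in the control and 83.4% in the transgenic section and Junb at or above 71.8% and 84.4%, whereas Atf3 stood at or above 84.9% and 82.0% and Myc 86.3% and 84.3%, so that the higher raw scores of Atf3 and Myc were not a higher standing. The control standings of these 4 genes rank deposited scores of a size that random scatter also gives, so no change of standing is read from them. Fos had 0.0036 and 0.0076 despite its 262 transgenic UMIs, under the transgenic median of all genes, and Fosb and Fosl1 had values between -0.0091 and 0.013.

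**Figure D3:**
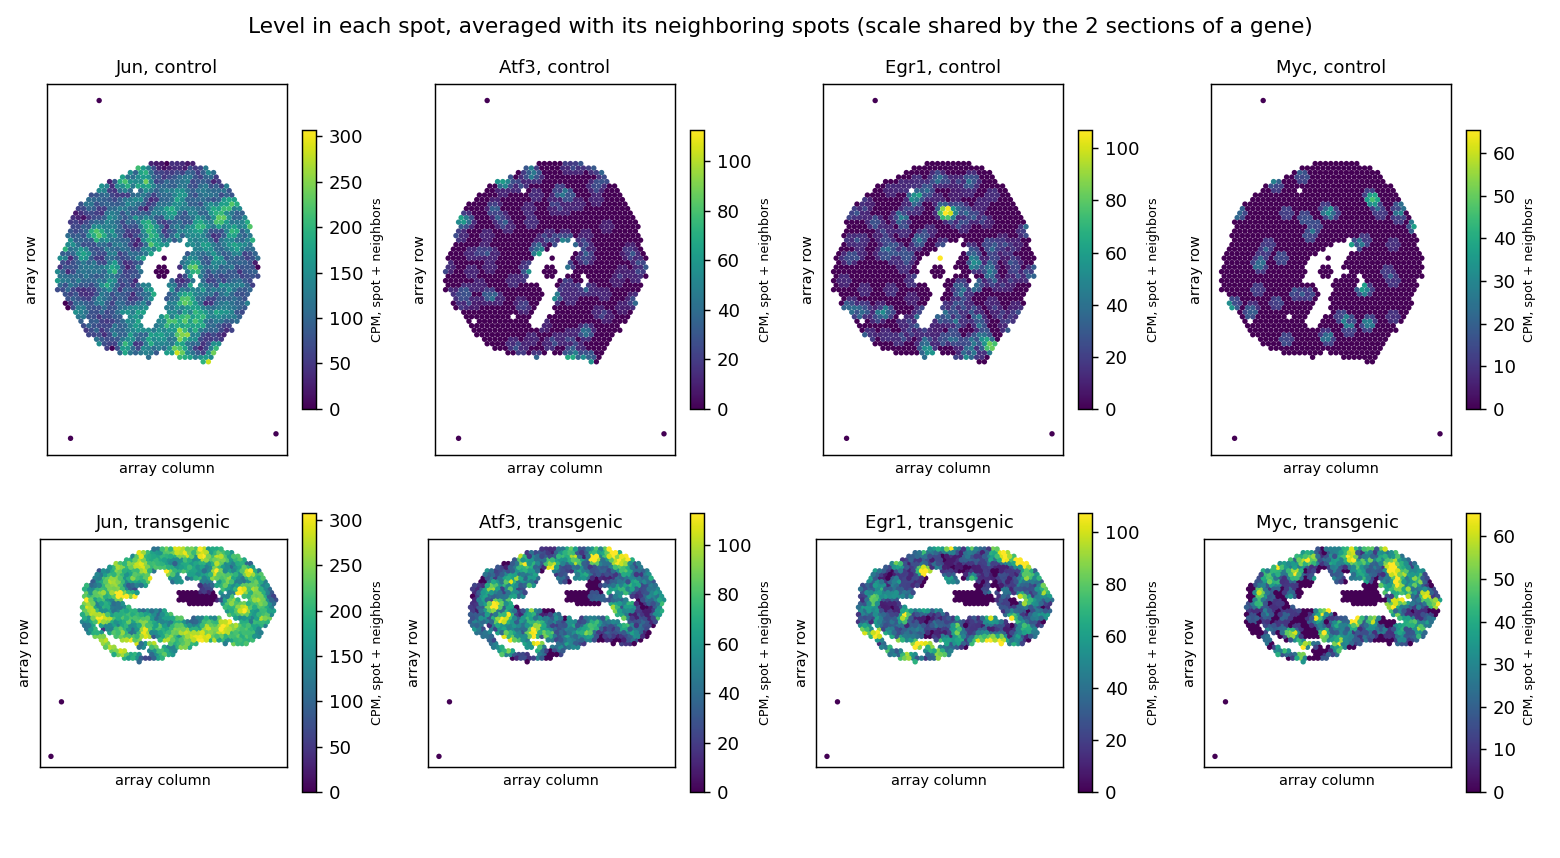
Maps of Jun, Atf3, Egr1 and Myc over the control section (top) and the transgenic section (bottom), each point a spot at its array position, colored by CPM over the spot and its neighbors on a scale shared by both sections of a gene, with the highest values in the end color. The transgenic section is brighter for each gene, with Myc high in the top right quadrant (33.9 CPM), Egr1 along the rim and Jun broadly.

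The position of the high spots differed between genes. Egr1 was higher at the edge of the transgenic section, in the 311 spots with a missing neighbor, than in the 613 interior spots, at 56.3 and 32.9 CPM, a log2 ratio of 0.78 (0.51 to 1.04), or 0.57 (0.30 to 0.84) for an edge 2 spots deep. In the control section Egr1 had 12.4 CPM both at the edge and inside, a log2 ratio of 0.00 (-0.67 to 0.62). Atf3 went the other way. It was lower at the transgenic edge, at 40.9 against 50.5 CPM (log2 ratio of -0.30, -0.58 to -0.03), and higher at the control edge, at 13.4 against 7.12 CPM (0.91, 0.23 to 1.55), the latter on 27 edge UMIs, and both signs held for the deeper edge, at -0.32 and 0.64. Jund was slightly lower at the transgenic edge, with a log2 ratio of -0.21 (-0.29 to -0.13), or -0.096 (-0.17 to -0.03) for an edge 2 spots deep. Jun had -0.16 (-0.29 to -0.03) there, but -0.07 (-0.19 to 0.04) for the deeper edge, and Myc had -0.26 (-0.64 to 0.10), but -0.41 (-0.72 to -0.09) for the deeper edge, so that both depended on where the edge was drawn. Fosb in the control was at 3.47 CPM at the edge on 7 UMIs and 0.890 CPM inside on 11 UMIs, a log2 ratio of 1.965 (0.36 to 3.46). Its control count lay within the range of the genes of other organs, so no pattern is read from it. The intervals of Fos, Fosl1, Fosl2 and Junb spanned 0 at both sections' edges, at either depth. Whether a gene's edge ratio differs between the sections was not tested, since each section is a single sample.

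Members differed in the cell type markers of the spots where they were high in the transgenic section. Levels in the 25% of spots richest in a marker list were set against those in the 25% poorest in it (230 spots each, with 314 in the control), for 10 genes and 12 lists. The interval of the log2 ratio lay above 0 for 25 and below 0 for 12 of these 120 pairs in the transgenic section, against 10.9% and 6.9% of 182729 pairs of a list and any of the 15236 genes outside it. In the control it did so for 4 and 3 of 120, against 3.33% and 2.84%, and all 10 members had fewer UMIs there. Since genes with more UMIs have narrower intervals, nothing is read from these shares about the members. The neutrophil, lymphocyte and nerve (Schwann and neuronal) lists held from 214 to 326 UMIs in a section, fewer than its spots. Spots at 0 in a list were ranked by their order in the data, so the splits by these 3 lists are weak. With the section cut at 50% in place of 25%, 27 of the 37 transgenic calls and 3 of the 7 control calls still had intervals off 0. Junb followed the fibroblast markers, at 68.4 CPM in the rich and 36.2 CPM in the poor spots, a log2 ratio of 0.92 (0.58 to 1.26), and was lower where cardiomyocyte markers were rich, at 36.7 against 67.7 CPM (-0.89, -1.23 to -0.55). Jund had the same signs with smaller sizes, 0.31 (0.21 to 0.42) for fibroblast and -0.30 (-0.40 to -0.20) for cardiomyocyte markers, and Fosl2 had 0.39 (0.15 to 0.62) for fibroblast markers. Myc was also lower where cardiomyocyte markers were rich, at 16.5 against 28.5 CPM (-0.79, -1.31 to -0.28), and was higher where macrophage markers were rich, at 31.2 against 18.9 CPM (0.72, 0.23 to 1.23). For macrophage markers Junb had 0.41 (0.09 to 0.73) and Jund 0.14 (0.04 to 0.24). At the 50% cut these were 0.17 (-0.05 to 0.39) and 0.08 (0.01 to 0.15). Not every pair with an interval off 0 is named here.

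Atf3 and Egr1 had the opposite sign for cardiomyocyte markers. Atf3 had 53.7 CPM in the spots richest in them and 40.6 CPM in the poorest (0.41, 0.06 to 0.75), and for fibroblast markers it had 42.3 and 57.5 CPM (-0.44, -0.77 to -0.11). Egr1 had 37.3 and 25.5 CPM for cardiomyocyte markers (0.55, 0.12 to 0.98) and 49.0 and 27.9 CPM for endothelial markers (0.81, 0.42 to 1.22). Egr1 was thus the member that followed the endothelial list most, with Fosl2 at 0.26 (0.03 to 0.50) and Jund at -0.23 (-0.33 to -0.13), while the -0.37 (-0.70 to -0.05) of Junb became -0.15 (-0.37 to 0.07) at the 50% cut. A single gene, Fabp4, made up 50.2% of the endothelial UMIs in the control and 50.5% in the transgenic section. The list was not tried without Fabp4. For lymphocyte markers, a list of 286 UMIs in the transgenic section, Egr1 had 0.71 (0.33 to 1.09), or 0.40 (0.15 to 0.66) at the 50% cut. For mural markers Fos had 0.64 (0.06 to 1.23), Egr1 0.42 (0.03 to 0.81), Junb 0.39 (0.07 to 0.72) and Jun 0.23 (0.06 to 0.40), but at the 50% cut all 4 intervals spanned 0, with values of 0.12, 0.16, 0.18 and 0.10. Jund had 0.15 (0.05 to 0.26) for mural markers, and its interval stayed off 0 at the 50% cut, at 0.07 (0.003 to 0.14). For erythroid markers Jund had -0.21 (-0.31 to -0.10) and Junb -0.37 (-0.71 to -0.03), the latter -0.11 (-0.33 to 0.11) at the 50% cut. The intervals of the other 8 members spanned 0 at the 25% cut. Of these Myc, at -0.32 (-0.83 to 0.17), had -0.41 (-0.73 to -0.09) at the 50% cut. In the control Atf3 had 0.95 (0.17 to 1.76) for erythroid markers on 39 and 23 UMIs, or 0.28 (-0.27 to 0.84) at the 50% cut. All these sets of spots share 1 library, neighboring spots and cells of several types, and which cells held the transcripts was not tested.

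**Figure D4:**
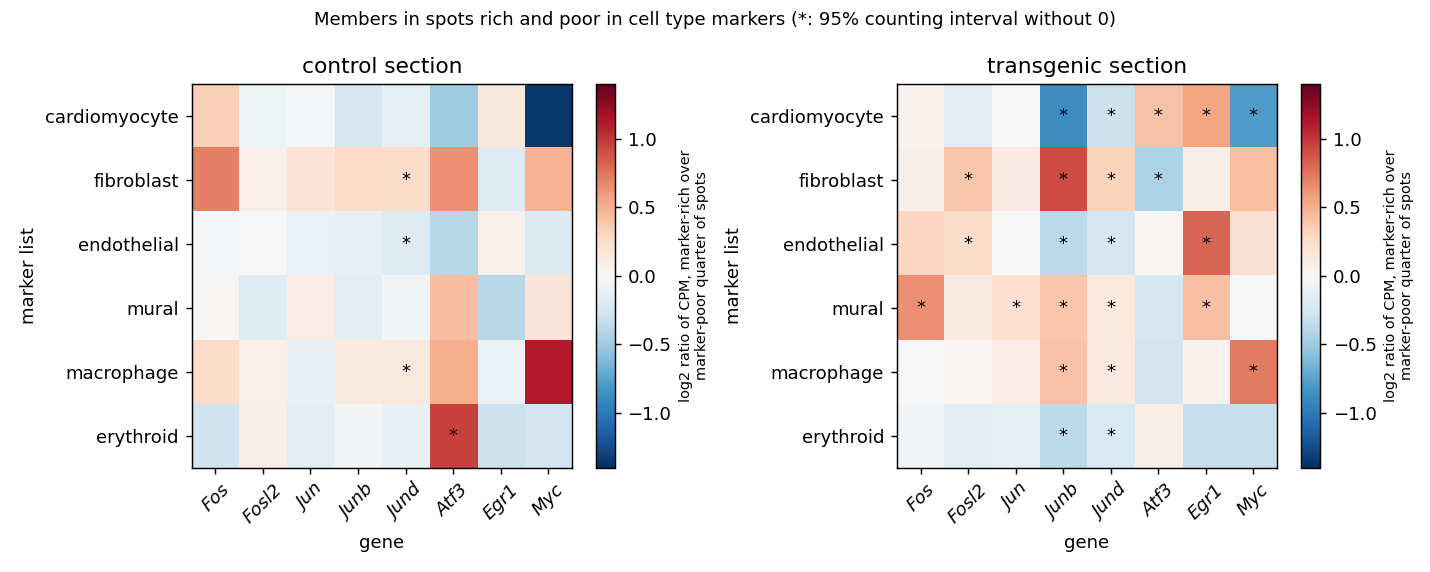
Log2 ratio of CPM between the 25% of spots richest and the 25% poorest in each marker list (rows) for 8 genes (columns), control left and transgenic right; an asterisk marks a 95% counting interval without 0, and values past the color scale share its end color. In the transgenic section Junb is high with fibroblast markers (0.92) and low with cardiomyocyte markers (-0.89), while Atf3 and Egr1 are high with cardiomyocyte markers (0.41 and 0.55).

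Lists named for the epicardium and the atrium could not be read as such, since Clu made up 95.1% and 99.1% of the epicardial UMIs and Nppa 74.1% and 99.1% of the atrial UMIs in the control and transgenic sections. Clu is a secreted chaperone and Nppa is the natriuretic peptide gene that stressed ventricles also express. In the transgenic section Myc had a log2 ratio of 1.09 (0.56 to 1.65) between spots rich and poor in the epicardial list and -0.06 without Clu, and Egr1 had -0.94 (-1.34 to -0.54) for the atrial list and 0.31 without Nppa. Without Clu the epicardial list held 644 UMIs over 924 transgenic spots. Spots at 0 were then ranked by their order in the data, so little is read from the value without Clu. Since Clu and Nppa made up 99.1% of their lists in the transgenic section, the full-list values describe these 2 genes. Myc was high and Egr1 low in the spots where Clu and Nppa, respectively, were abundant. The skeletal muscle list was mostly Ckm, the muscle creatine kinase that cardiomyocytes also express, at 94.9% and 53.3% of its UMIs, and it was not tried without Ckm. In the transgenic section Atf3 had a log2 ratio of 0.73 (0.37 to 1.09) for this list. Junb and Egr1 went the other way, at -0.46 (-0.77 to -0.14) and -0.43 (-0.81 to -0.05). At the 50% cut Egr1 had 0.03 (-0.22 to 0.29) and Junb -0.23 (-0.45 to -0.01).

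Single genes with a like pattern were ranked by Pearson's r across spots, on values summed over a spot and its neighbors, for members with at least 500 UMIs in a section. Such r values are descriptions over 923 transgenic or 1256 control spots that share a library, depth and, by the summing, their neighbors' counts. An edge spot has fewer neighbors to sum, which lowers the sums of every gene there. The transgenic section had 311 edge and 613 interior spots, and the control 230 and 1026. On single spots r was lower, such as 0.34 for Jun with Ndrg2 and 0.43 for Jund with Mt1 in the transgenic section. In the transgenic section the genes most like Jun were Ndrg2 (r = 0.74), Drap1, Jup, Tpm1 and Gpi1, and those most like Jund were Mt1 (0.74), Hspb1, Lmna, Cd81 and Rack1. Fosl2 was most like Col4a1 (0.55), Ccn2, Sparc, Capn2 and Mafk, a list of matrix genes, a matrix-associated signaling gene, a calpain and a small MAF factor. Junb was most like Ncam1 (0.46), Loxl1, Gpx3, App and Cyb5r3. Atf3 was most like Lmcd1 (0.46), Tsc22d1, Prxl2b, Eef1a2 and Flnc, where Lmcd1 and Flnc are muscle genes. Among the genes most like Egr1 were Cd36 (0.42), Lad1, Pnpla2 and Ahcyl1, where Cd36 and Pnpla2 act in fatty acid uptake and triglyceride breakdown. In the control section 3 members had enough UMIs and the values were lower, such as 0.33 for Jun with Hspb7, 0.29 for Jund with Sqstm1 and 0.23 for Fosl2 with Pmpcb. On single spots these were 0.12, 0.11 and 0.03.

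Among the members themselves the 45 pairs had a median r of 0.04 in the control and 0.14 in the transgenic section on the same summed values. On single spots the medians were 0.007 and 0.035. The transgenic section had more edge spots, where fewer neighbors are summed, and more UMIs of each member. No difference in r between the sections is therefore read from these values. Jun and Jund were the most alike pair in the transgenic section, at 0.57, or 0.24 on single spots, followed by Fosl2 with Jun at 0.39 and Fosl2 with Jund at 0.34. In the control the highest r of any pair was 0.17.

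Other genes of the response were read from lists chosen with earlier results of these data known, each by the genes with at least 20 UMIs. Of all genes with that minimum, 63.2% were higher and 36.8% lower in the transgenic section. At least 2-fold higher were 13.7% of them, and at least 2-fold lower 5.61%. Of 17 other bZIP genes, 15 were higher and 2 lower in the transgenic section, with 4 at least 2-fold higher, 0 at least 2-fold lower and a median log2 ratio of 0.39. The list goes beyond the AP-1 family, since it also holds Creb1, Crem, Atf1 and Atf6. The small MAF genes Mafk, at 1319 and 4841 UMIs, and Maff, at 292 and 1071 UMIs, led with log2 ratios of 2.03 each, and Batf2 and Batf were lowest, at -0.81 (-1.74 to 0.08) on 33 and 17 UMIs and -0.39 (-1.64 to 0.81) on 16 and 11 UMIs. Of 32 other immediate early genes, 29 were higher and 3 lower, with 16 at least 2-fold higher, 0 at least 2-fold lower and a median of 0.96. Ccn2 and Ccn1, secreted matricellular proteins, led with 4.37 (4.29 to 4.44) and 2.85, on 1589 and 29509 UMIs for Ccn2 and 405 and 2623 UMIs for Ccn1. The orphan nuclear receptor genes Nr4a1 and Nr4a3 lay on the other side, at -0.93 (-1.08 to -0.79) on 1177 and 555 UMIs and at -0.40 (-0.72 to -0.08) on 203 and 139 UMIs. The list was therefore mostly higher in the transgenic section but not uniform.

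The kinases and cofactors upstream were closer to the median of all genes. Of 26 MAP kinase and SRF inputs, 19 were higher and 7 lower, against 63.2% and 36.8% of all genes. In each direction 1 was at least 2-fold, against 13.7% of all genes higher and 5.61% lower. The median of these inputs was 0.22, or 0.06 with TMM factors, where the median of all genes was 0.05. Mapk13, on 8 and 15 UMIs, and Mapk7, which encodes ERK5, were highest, at 1.06 (-0.27 to 2.50) and 0.99 (0.62 to 1.36), and Map2k6, which activates p38, and Mapk14, which encodes p38α, were lowest, at -1.13 (-1.56 to -0.72) and -0.54 (-0.68 to -0.41). Of 16 negative feedback genes, which encode phosphatases and inhibitors that end the signal, 12 were higher and 4 lower, with a median of 0.67. Of these 16 genes, 6 were at least 2-fold higher and 0 at least 2-fold lower, against the same shares of all genes. Dusp1 and Zfp36 are also among the other immediate early genes above, and Zfp36, at 1.21, is past 2-fold in both counts. Dusp4, a nuclear MAP kinase phosphatase, had 95 and 753 UMIs (3.14, 2.83 to 3.46) and Spry1, an inhibitor of receptor tyrosine kinase signaling, 282 and 959 UMIs (1.92, 1.72 to 2.11). Dusp14 and Dusp10 were lowest, at -0.26 (-1.69 to 1.11) and -0.21 (-0.50 to 0.07), both with intervals that spanned 0.

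**Figure D5:**
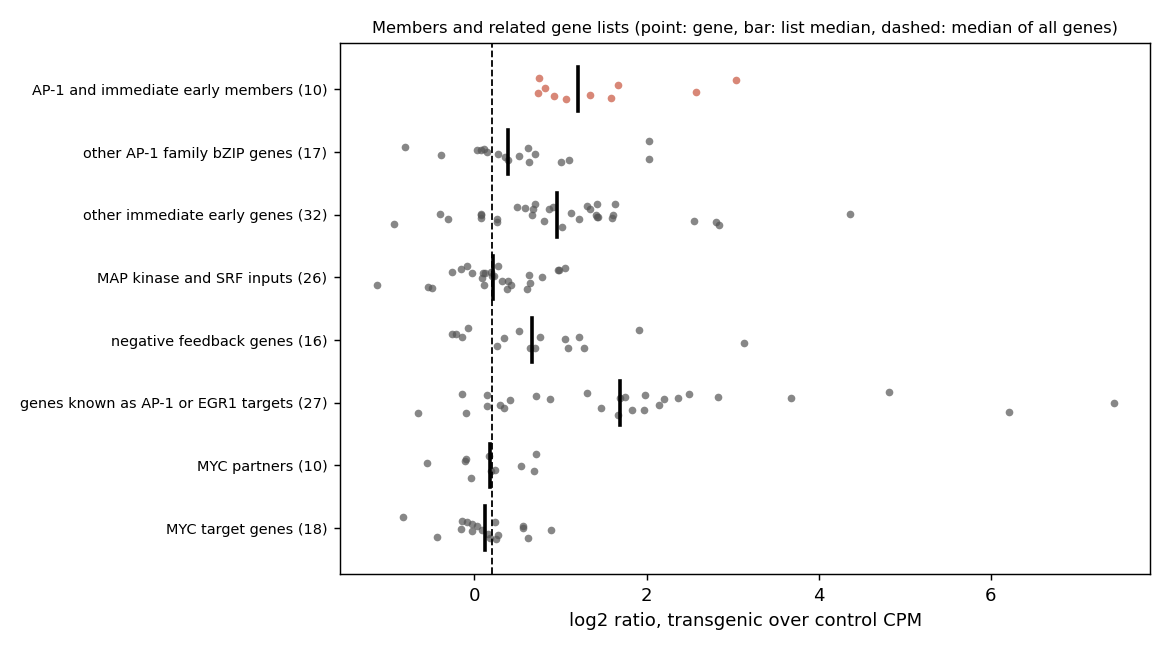
Log2 ratio of transgenic over control CPM for the genes of each list with at least 20 UMIs (number in parentheses); points are genes, black bars list medians and the dashed line the median of all genes (0.20). The 10 members (red, median 1.20), the other immediate early genes (0.96) and the AP-1 or EGR1 targets (1.69) lie to the right of the line, whereas the MAP kinase and SRF inputs (0.22), MYC partners (0.18) and MYC targets (0.12) lie close to it.

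Genes known as AP-1 or EGR1 targets in other settings had the highest median of the lists, 1.69, with 24 of 27 higher, 3 lower, 17 at least 2-fold higher and 0 at least 2-fold lower. Of all genes, 63.2% were higher, 36.8% lower, 13.7% at least 2-fold higher and 5.61% at least 2-fold lower. The list was chosen with earlier results of these data known, so its median is not independent of them. In the fibroblast-poor spots that median was 1.09. Sprr1a, a stress-induced small proline-rich protein, had 10 and 1552 UMIs (7.43, 6.55 to 8.49), and Nppa had 3935 and 262300 UMIs (6.21, 6.16 to 6.25). Mmp12 and Pdgfb were lowest, at -0.66 (-2.12 to 0.70) on 14 and 8 UMIs and at -0.15 (-0.26 to -0.03) on 1381 and 1123 UMIs.

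The genes around Myc did not share its ratio. Of 10 genes listed as MYC partners, 6 were higher and 4 lower, with 0 at least 2-fold in either direction and a median of 0.18. The list includes the MYC dimer partner Max, the MXD repressors that compete for Max, and the MYC family genes Mycn and Mycl. Mxd4 and Mxd1 were highest, at 0.72 (0.57 to 0.87) and 0.69 (0.15 to 1.23), and Mycn and Max lowest, at -0.56 (-0.91 to -0.21) and -0.11 (-0.30 to 0.09). Of 18 genes known as MYC targets, most of them of ribosome production, 11 were higher and 7 lower, with 0 at least 2-fold in either direction and a median of 0.12, below that of all genes. Of all genes, 63.2% were higher, 36.8% lower, 13.7% at least 2-fold higher and 5.61% at least 2-fold lower. Odc1, the first enzyme of polyamine synthesis, and Tert, on 13 and 18 UMIs, were highest, at 0.89 (0.63 to 1.15) and 0.62 (-0.49 to 1.77), and Dkc1 and Rrs1, both of ribosome production, lowest, at -0.84 (-1.06 to -0.62) and -0.43 (-0.61 to -0.25). Beside the log2 ratio of 3.04 for Myc itself, no gene of these lists reached 2-fold. Nothing is read from that, since the lists are short and were chosen with earlier results of these data known.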

How the data were processed

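Spatial gene expression was measured in 1 control and 1 transgenic heart section. The header of the deposited counts names Space Ranger 2.0.0 as the tool the authors ran on the reads. The submitters' processing notes also name bcl2fastq and the genome build GRCm39 (mm39), and the probe set is not given in the sources used here. The deposited values are raw UMI counts per gene and spot over tissue, not normalized. Moran's I is a score per gene that the authors deposited for each section, used as given and, where stated, recomputed from the counts. UMIs were summed per section, since spots are not replicates, and divided by the section total (CPM). Intervals are exact Poisson (CPM), exact conditional binomial (ratios) and Clopper–Pearson (shares), and cover counting error only. A count of 0 allows up to 3 counts, or 0.209 (control) and 0.232 CPM (transgenic). No p value was computed. Genes with at least 20 UMIs over both sections gave medians and background shares. Edge spots have fewer than 6 neighbors, and quadrants meet at the center of the tissue. The named genes are all members, the 2 highest and 2 lowest of each list, and the 5 genes most like a member with at least 500 UMIs, beside Top2b, and some of these are not reported here. Members, lists and alternatives were chosen with earlier results of these data known. Genes of a list absent from the matrices were not analysed here. Alternatives used edgeR 4.0.16 and DESeq2 1.42.0 in R 4.3.3; the rest used scipy 1.17.1, numpy 2.4.6 and pandas 2.3.3 in Python 3.11.15. The intervals were tried on counts simulated with counting error alone, which does not speak to spread between spots or animals. Neither the p values that came with Moran's I nor the images were used.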

Additional observations from a re-analysis of the deposited data

How the results depend on the processing

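All 10 members stayed higher in the transgenic section under all 20 alternatives of scaling, spots and quadrants. Their median log2 ratio ran from 0.99, with 1 CPM added, to 1.35, without the top right quadrant of the control section, and the number past 2-fold from 5 to 7. The shares of all genes that were higher or past 2-fold were not computed under these alternatives. The median of all genes ran from 0.05, with TMM factors, to 0.25, in the erythroid-poor spots. Of 200 recomputed log2 ratios of single members, 181 lay inside the interval of the value reported and 19 outside it, with none reversed. Of 154 recomputed list medians, 3 lay outside, none reversed. Between marker-rich and marker-poor spots of the transgenic section, leaving Clu out of the epicardial list turned Atf3 to 0.015, Jund to -0.069 and Myc to -0.063, leaving Nppa out of the atrial list turned Egr1 to 0.31, and 50% cuts of the skeletal muscle list turned Egr1 to 0.034. Without Clu the epicardial list held 644 UMIs over 924 spots, and spots at 0 were ranked by their order in the data. In the control section, leaving Nppa out turned Jund to -0.095. Of the other marker ratios, 199 lay inside the interval of the value reported and 19 outside it, and 10 of 37 transgenic and 4 of 7 control intervals off 0 spanned 0 at 50% cuts. The causes were not tested. The spots poor in a marker list and the lists without Clu or Nppa were added after seeing the data. With 1 section per genotype, no alternative speaks to the spread between animals. No paired analysis was possible because each genotype has 1 section.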
